A study of Mus musculus with 5 samples.

Results

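The genes described here encode the mitochondrial respiratory chain, and 32 of the 4727 genes with a called region in any of 4 deposited region lists belonged to it. They were chosen by name: every gene whose symbol starts with mt-, Nduf, Sdh followed by a to d, Uqcr, Cox4 to Cox8 or Atp5 was taken if the annotation placed a region inside it, over its start or end, or across it. Of these, 29 were nuclear genes and 3 were genes of the mitochondrial genome, namely mt-Rnr1, mt-Rnr2 and mt-Co1. Read literally, the name rule also takes Sdhaf1 and Sdhaf3, which encode assembly factors of complex II, and they were kept and grouped with the complex I assembly factor Ndufaf4.

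The study looked for RNAs bound by CYFIP1 in mouse hippocampus by RNA immunoprecipitation and sequencing. All 5 libraries came from hippocampi of C57BL/6 mice; the sources used here give neither the age nor the sex of the mice. RNA was precipitated with an anti-HA antibody from 2 knock-in mice, with mouse control IgG from knock-in mice carrying the same numbers, and with the anti-HA antibody from 1 wild-type mouse, the control for that antibody. The labels call the mice knock-in without describing the allele, so the tag on CYFIP1 is taken from the series' text. Each list sets 1 HA library against 1 control: HA over IgG in mouse 1 and in mouse 2, and each HA library over the same wild-type library, so the latter pair of lists shares its control. No group had more than 2 libraries, and whether the libraries of a number came from 1 lysate is not stated.

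The respiratory chain passes electrons from NADH and succinate through complexes I to IV to oxygen, and complex V, the ATP synthase, uses the proton gradient that they build to make ATP. A few core subunits, along with the rRNAs and tRNAs that translate them, are encoded by the mitochondrial genome and are made inside the organelle, while the other subunits come from nuclear genes, are translated in the cytosol and are imported. CYFIP1 is a cytosolic protein known as a partner of FMRP and of the cap-binding protein eIF4E and as a subunit of the WAVE complex, which acts on actin.

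The stretches below are the parts of the RNAs on which the results turn, from the GENCODE M21 transcripts (GRCm38, mm10), written as DNA in the direction of the transcript. The first 3 are the mitochondrial RNAs that held most of the reads, and capitals mark bases inside a called region in every list that holds a region of that gene. mt-Rnr1, the small ribosomal RNA of the mitochondrion, is shown at chrM:371-520 (+), mt-Rnr2, its large ribosomal RNA, at chrM:1741-2040 (+), and mt-Co1, the mRNA of the catalytic subunit of complex IV, at chrM:5571-5720 (+). The last is a coding exon stretch of Atp5g2 at chr15:102665054-102665247 (-) and lies wholly inside its regions. Atp5g2 was the nuclear member at least 2-fold higher over the shared wild-type library in both mice, as were 11.2% of all 1663 genes compared. Its folds, given below, rest on few reads and were not distinguishable from 1.
mt-Rnr1: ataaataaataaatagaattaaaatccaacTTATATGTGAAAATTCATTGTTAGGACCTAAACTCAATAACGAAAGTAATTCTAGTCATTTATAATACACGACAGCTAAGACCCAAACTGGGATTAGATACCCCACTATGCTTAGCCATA
mt-Rnr2: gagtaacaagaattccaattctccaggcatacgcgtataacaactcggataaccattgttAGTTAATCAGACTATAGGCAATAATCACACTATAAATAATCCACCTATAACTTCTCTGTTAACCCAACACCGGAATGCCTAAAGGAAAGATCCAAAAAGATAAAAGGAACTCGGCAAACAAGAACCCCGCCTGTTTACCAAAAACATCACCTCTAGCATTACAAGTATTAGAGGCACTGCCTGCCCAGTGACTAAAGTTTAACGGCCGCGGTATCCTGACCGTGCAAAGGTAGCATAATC
mt-Co1: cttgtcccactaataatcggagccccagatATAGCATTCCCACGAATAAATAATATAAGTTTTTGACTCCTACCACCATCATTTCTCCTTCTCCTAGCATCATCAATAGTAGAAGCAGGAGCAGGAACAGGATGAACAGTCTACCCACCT
Atp5g2: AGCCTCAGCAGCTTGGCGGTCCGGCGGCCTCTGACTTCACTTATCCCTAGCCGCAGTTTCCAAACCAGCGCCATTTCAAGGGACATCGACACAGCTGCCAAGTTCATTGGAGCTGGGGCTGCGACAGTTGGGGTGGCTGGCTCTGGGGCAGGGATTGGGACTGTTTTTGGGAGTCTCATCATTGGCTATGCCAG
The G and C content of these stretches was 30% for mt-Rnr1, 41.7% for mt-Rnr2 and 42.7% for mt-Co1, against 58.2% for Atp5g2.

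Depth limits all that follows. The lists hold reads inside called regions only, 64055 to 166760 for the HA library and 25747 to 181527 for the control, and the totals of the libraries are not given in them. HA and control reads were therefore compared after dividing their ratio by the median ratio of all regions of the list with at least 20 reads, which was 2.89 (mouse 1) and 0.947 (mouse 2) in the lists over IgG, and 1.41 and 1.75 in those over the wild type. This scaled fold is 1 at the median of those regions with at least 20 reads. A fold below 1 means a lower ratio of HA to control reads than that median, not fewer HA than control reads. Bracketed ranges are 95% exact counting intervals with the median ratio taken as fixed; they cover counting error only. Genes needed 10 reads, HA and control together, to enter a count of folds. Since whole hippocampus was lysed, fewer cells of a type and less RNA per cell cannot be told apart. Of the markers of hippocampal cells, 2 of 7 neuronal, 1 of 6 pyramidal and granule cell, 3 of 5 astrocyte and 1 of 5 oligodendrocyte markers had a region in any list. None of the 5 microglial, 3 endothelial, 3 blood and 3 choroid plexus markers had. Since 97.5% of all regions lay on 7 chromosomes, a marker elsewhere had little chance of a region. A marker without a region is therefore no sign that its cell type was absent. The part of cell makeup in the results was not tested.

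Reads of the mitochondrial genome were plentiful in the IgG library of mouse 1. The 3 regions there, at chrM:401-1000 in mt-Rnr1, chrM:1201-2200 in mt-Rnr2 and chrM:5601-6800 in mt-Co1, held 2633 HA and 3475 IgG reads together. The IgG library thus had more reads than the HA library at all 3 genes. They made up 13.5% of all IgG reads in the list but 2.64% of the HA reads. The unscaled ratio of HA to IgG reads was 0.758 (0.720 to 0.797), and the scaled fold was 0.262.

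At mt-Rnr2 the HA library of mouse 1 had 907 reads and the IgG library 1520, a scaled fold of 0.206 (0.190 to 0.224). At mt-Rnr1 the counts were 648 and 820, a scaled fold of 0.273 (0.246 to 0.303). At mt-Co1 they were 1078 and 1135, a scaled fold of 0.328 (0.302 to 0.357). All 3 were at or below 0.5-fold, and 17.9% of all 1630 genes with enough reads in that list were too. No region on the mitochondrial genome was called over IgG in mouse 2, so these values come from 1 mouse.

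Over wild type, the scaled folds of mt-Rnr2 lay above 1, near those of the ordinary gene of these lists. In mouse 1, mt-Rnr2 had 907 HA reads against 497 in the wild-type library, a scaled fold of 1.29 (1.16 to 1.44). In mouse 2, a shorter region at chrM:1801-2200 held 590 HA and 242 wild-type reads, a scaled fold of 1.39 (1.198 to 1.62). Both intervals lay above 1, while the median over all genes was 1.24 and 1.19 in these lists, inside the interval in mouse 1 and just below it in mouse 2. The authors' deposited table did not call these mt-Rnr2 regions. Its adjusted p-values were 0.9995 in mouse 1 and 0.986 in mouse 2, and its empirical false discovery rates 0.849 and 0.765. Both folds were short of 2 on this scale; with the pooled ratio of the list as the scale they were 2.15 and 2.65. The mean log2 scaled fold was 0.42 ± 0.08 (SD, n = 2 HA libraries over 1 shared control). The same interval of mt-Rnr2 was counted in 3 libraries of mouse 1's lists, and the order was 1520 reads with IgG, 907 with anti-HA in the knock-in and 497 with anti-HA in the wild type. Of the 37 genes of the mitochondrial genome, the 2 rRNA genes and 1 of the 13 mRNA genes had a region, and none of the 22 tRNA genes did.

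**Figure D1:**
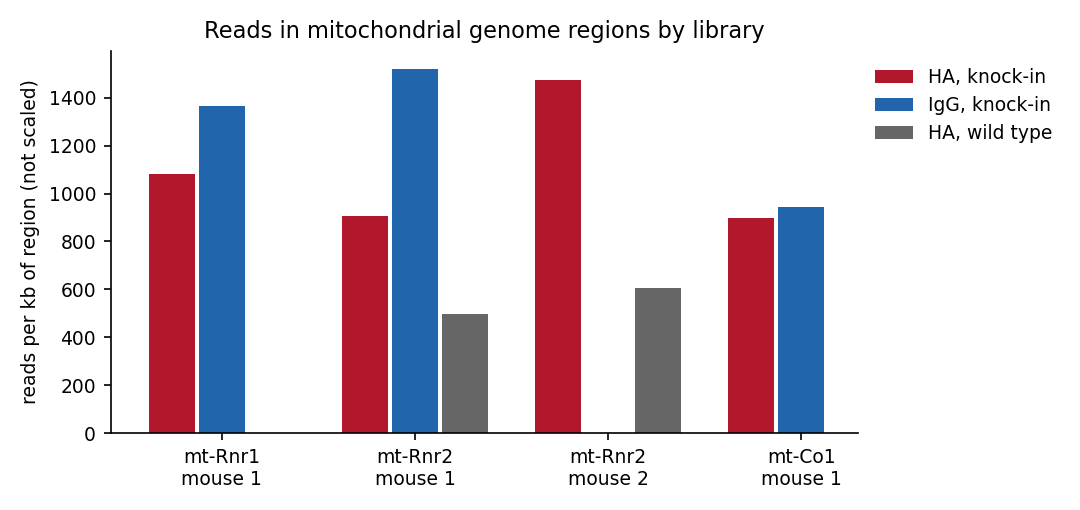
Reads per kb of called region, not scaled for library size, for each mitochondrial member and mouse; bars are single libraries (HA in the knock-in, IgG in the knock-in, HA in the wild type), and an absent bar means that no list counted the region in that library. IgG exceeds HA at all 3 genes of mouse 1, and HA exceeds the wild type at mt-Rnr2 in both mice.

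Copies of mitochondrial DNA in the nucleus can take reads from these genes. Among GENCODE M21 nuclear transcripts, 2 matched mt-Co1 over at least 100 bp at 95% identity or more, Gm13340 and Gm29216, and neither had a region in any list; no transcript matched mt-Rnr1 or mt-Rnr2. The sources used here do not say how reads with several matches were treated.

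The nuclear members were found on few chromosomes and held few reads. By the same name rule GENCODE M21 lists 99 nuclear genes, of which 39 lie on the 7 chromosomes (1, 4, 6, 7, 12, 15 and X) that held every nuclear member; those chromosomes also held 97.5% of all 16828 regions of the 4 lists. Grouped by symbol alone, the members on these chromosomes were 15 of 17 genes of complex I, 2 of 2 of complex II, 2 of 2 of complex III, 4 of 9 of complex IV, 3 of 4 named Atp5 and 3 of 5 assembly factors. These chromosomes were picked because they hold a member, and over all chromosomes 29 of the 99 genes had a region. The share of all genes on them with a region was not worked out. Whether members had regions more often than other genes was thus not tested. Symbol and role differ for a few: Ndufa4, counted with complex I, encodes a subunit of complex IV, and Atp5s and Atp5sl are no core subunits of the ATP synthase. HA reads per kb of region were 1.04 to 4.40 over the nuclear members with enough reads, against 898 to 1475 for the mitochondrial ones.

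The lists differed in which chromosomes they covered. All 8 members on chromosome 7 had a region only over wild type in mouse 1, where that chromosome held 545 regions; it held 19 to 36 in the other 3 lists. In the list over IgG in mouse 2, 4 of the 5 nuclear members lay on chromosome 15 and the fifth on chromosome 12, and these had lower median ratios (0.783 and 0.714) than the list as a whole. By list, 13 and 5 nuclear members had a region over IgG in mice 1 and 2, and 27 and 17 over wild type. Only Atp5s, Ndufa6 and Ndufb9 had one in all 4 lists; 9 genes had one in 3 lists, 6 in 2 and 11 in 1.

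Over IgG, no nuclear member with enough reads reached a scaled fold of 1 in either mouse. In mouse 1, 3 members had enough reads, with a median scaled fold of 0.532 and a range of 0.441 to 0.605, beside a median of 0.882 over all 1630 genes. In mouse 2, 4 members had a median of 0.603 and a range of 0.395 to 0.80, beside 0.898 over 889 genes. None was at least 2-fold higher in either mouse (12.1% and 12.8% of all genes were), and 1 and 2 were at most 0.5-fold (17.9% and 16.1% of all genes). Folds below 1 were common in these lists, at 57.2% and 57.5% of all genes.

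Complex I, the NADH dehydrogenase, gave 103 of 112 HA and 59 of 60 IgG reads of the nuclear members in mouse 1, and 44 of 97 HA and 74 of 188 IgG reads in mouse 2. Ndufa6, an accessory subunit of its matrix arm, had 14 HA reads against 8 IgG reads in mouse 1, then 19 against 41 in mouse 2. The scaled folds were 0.605 (0.237 to 1.66) and 0.490 (0.268 to 0.863), a mean log2 scaled fold of -0.88 ± 0.22 (SD, n = 2). The IgG reads were above the HA reads in mouse 2 and below them in mouse 1. Ndufb9, an accessory subunit of the membrane arm, had 23 HA reads against 18 IgG reads in mouse 1, then 25 against 33 in mouse 2. Its scaled folds were 0.441 (0.228 to 0.868) and 0.80 (0.456 to 1.39), a mean of -0.75 ± 0.61 (SD, n = 2) on the log2 scale.

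These were the only members with enough reads over IgG in both mice. Neither was at least 2-fold higher in both (6.26% of 543 genes were) or at most 0.5-fold in both (14.2%). In a limma fit over the summed reads of all 543 genes with the mouse number as a block, Ndufa6 had a log2 difference of -0.89 (SE 0.22) with an adjusted p of 0.0856, and Ndufb9 one of -0.75 (SE 0.32) with an adjusted p of 0.198. Neither passed the threshold of 0.05, which 13.1% of genes did. With all reads of the list pooled for the scale, the same fit gave log2 differences of -1.64 and -1.50 with limma adjusted p of 0.000111 and 0.000396, so the call rests on the scaling. Both genes had the same SE (0.391) in that pooled fit, so it used no spread of their own. Without the mouse block, the form planned for the region fit, the limma adjusted p was 0.997 for both. Over the alternatives that kept all libraries, it ranged from 0.000111 to 0.997 for Ndufa6 and from 0.000396 to 0.997 for Ndufb9.

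Ndufb2, another membrane arm subunit, had 40 HA reads against 26 IgG reads in mouse 1, a scaled fold of 0.532 (0.316 to 0.907), and no region in mouse 2. Cox6c, a small subunit of complex IV, had 31 HA reads against 83 IgG reads in mouse 2, a scaled fold of 0.395 (0.252 to 0.603). Atp5g2, which encodes the c subunit of the rotating ring of the ATP synthase, had 19 and 28 reads in mouse 2, a scaled fold of 0.717 (0.378 to 1.33). Neither Cox6c nor Atp5g2 had a region placed on it over IgG in mouse 1. Among the nuclear members with enough reads, the lowest fold over IgG was that of Cox6c, where IgG reads exceeded HA reads. Atp5s, which encodes an ATP synthase-associated factor rather than a core subunit, had 2 HA reads against 0 IgG reads in mouse 1, then 3 against 3 in mouse 2.

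Further complex I members appeared over IgG in mouse 1 with few reads; Ndufa5, Ndufa9, Ndufa10, Ndufb6, Ndufs1 and Ndufs5 had 3 to 6 each. At these counts no fold below or above 1 was detectable; for Ndufa9, with 5 HA and 1 IgG read, the interval of the scaled fold ran from 0.193 to 81.7. Uqcrh, the hinge subunit of complex III, likewise had 5 and 1, and the assembly factor Sdhaf3 2 and 0.

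Over wild type the nuclear members lay on both sides of 1. In mouse 1, 15 members had enough reads, with a median scaled fold of 1.06 and a range of 0.620 to 2.12, beside a median of 1.24 over all 2647 genes; 10 were above 1 and 5 below. In mouse 2, 10 members had a median of 1.277 and a range of 0.571 to 3.81, beside 1.19 over 2288 genes, and 7 were above 1 and 3 below. With the pooled ratio of the list as the scale, those 8 values below 1 lay above 1, so which side of 1 a member took depends on the scaling. At least 2-fold were 2 members in mouse 1 and 3 in mouse 2, while 20.4% and 18.3% of all genes were. None was at most 0.5-fold, where 3.44% and 4.15% of all genes were.

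**Figure D2:**
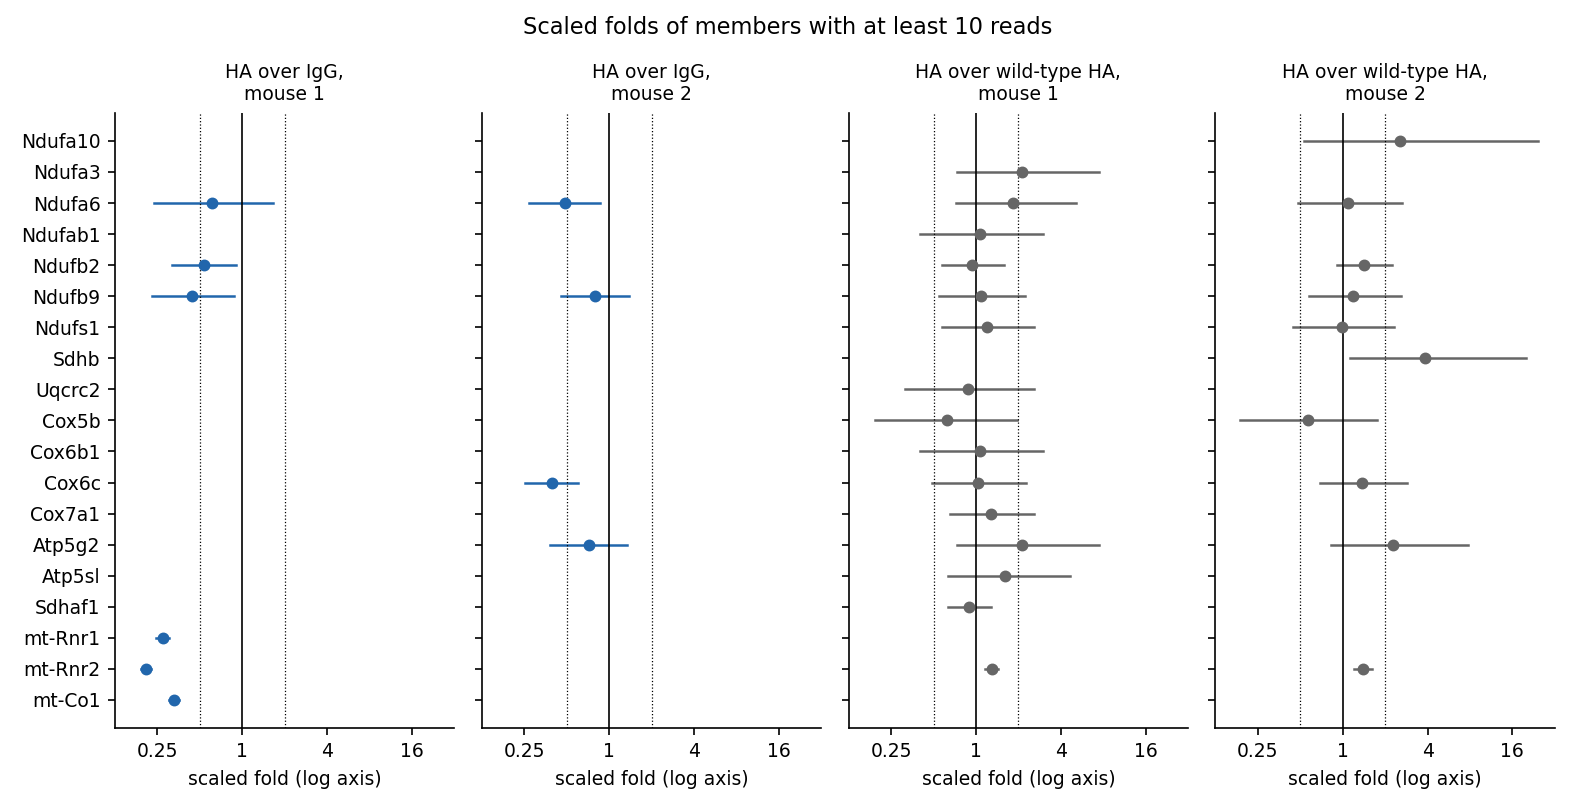
Scaled fold (log axis) of each member with at least 10 reads in each of the 4 lists, with its 95% exact counting interval, 1 member left out; the solid line is 1 and the dotted lines are 0.5 and 2. Over IgG every plotted value lies below 1, and over wild type the nuclear members spread from 0.571 to 3.81 with wide intervals.

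In both mice over wild type, 8 nuclear members had enough reads. Only Atp5g2 was at least 2-fold higher in both (11.2% of 1663 genes were), and none was at most 0.5-fold in both (2.47%). Atp5g2 had 15 HA reads against 5 wild-type reads in mouse 1, then 20 against 5 in mouse 2, at scaled folds of 2.12 (0.734 to 7.47) and 2.29 (0.832 to 7.79). Both intervals held 1. With 0.5 added to both read numbers, the count of such members was 0. In mouse 2 the HA reads of Atp5g2 were thus above the wild-type library and, as given above, below the IgG library, over regions of different length.

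Complex II, succinate dehydrogenase, had the highest fold with enough reads. Sdhb, its iron-sulfur subunit, had 5 HA reads to 1 of the wild type in mouse 1, then 20 to 3 in mouse 2. The scaled folds were 3.54 (0.396 to 167) and 3.81 (1.13 to 20.02), and the second was the only nuclear interval of either mouse that lay above 1 over wild type. Its lower bound was below the median of 1.19 over all genes of that list. In mouse 1 the gene fell short of the read minimum. In the authors' deposited table, adjusted p-values of the Sdhb regions were 0.0426 and 0.0380 in mouse 2 and 0.384 in mouse 1. The empirical false discovery rates there were 0.426, 0.429 and 0.556. Neither mouse had a region of Sdhb over IgG, so the comparison with the wild type stands alone. Sdhc, a membrane anchor of the same complex, had 2 HA reads to 1 of the wild type in mouse 2.

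Ndufs1, a core subunit of complex I, stayed near the median of the lists. This gene, which carries iron-sulfur clusters of the electron path, had 22 HA reads against 13 wild-type reads in mouse 1, then 19 against 11 in mouse 2, at scaled folds of 1.198 (0.578 to 2.59) and 0.987 (0.446 to 2.30). Both intervals held 1. Ndufs1 alone had a region with identical coordinates in both lists over wild type, at chr1:63143486-63143895, with 3 HA and 0 wild-type reads in each.

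Among accessory subunits of complex I, Ndufa6 had 18 HA reads against 7 wild-type reads in mouse 1, then 19 against 10 in mouse 2, at scaled folds of 1.82 (0.726 to 5.16) and 1.09 (0.480 to 2.61). Ndufb9 had 23 and 15, then 25 and 12, at 1.09 (0.543 to 2.24) and 1.19 (0.576 to 2.60). Ndufb2 had 40 and 30, then 74 and 30, at 0.944 (0.574 to 1.57) and 1.41 (0.911 to 2.23). All these intervals held 1. The HA reads of Ndufb2 exceeded those of the wild type most in 1 region of mouse 2 inside the gene, chr6:39596401-39600600, with 11 HA reads and 1 wild-type read, a scaled fold of 6.29 (0.914 to 271).

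Ndufa3, a small membrane subunit, had 15 HA reads against 5 wild-type reads in mouse 1, a scaled fold of 2.12 (0.734 to 7.47), in a region where 23.5% of the bases lay on the gene. Ndufa10, an accessory subunit, had 9 and 2 reads in mouse 2, a scaled fold of 2.57 (0.532 to 24.5), and 2 and 0 in mouse 1. Ndufab1, the mitochondrial acyl carrier protein, had 12 and 8 in mouse 1, at 1.06 (0.399 to 2.996). Ndufa9 and Ndufb6 stayed below 10 reads in each list. No value of these 5 genes was distinguishable from 1.

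In complex III, the cytochrome bc1 complex, Uqcrc2, a core protein, had 10 HA reads against 8 wild-type reads in mouse 1, a scaled fold of 0.885 (0.315 to 2.58). Uqcrh had 5 and 4 reads in mouse 1 and 4 and 4 in mouse 2. Neither gene set its HA library apart from the wild type at this depth.

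In complex IV, cytochrome c oxidase, Cox6c had 19 HA reads against 13 wild-type reads in mouse 1, then 31 against 13 in mouse 2, at scaled folds of 1.03 (0.485 to 2.28) and 1.36 (0.693 to 2.84). Cox6b1 had 12 and 8 and Cox7a1, the heart and muscle isoform, 27 and 15 reads in mouse 1, at 1.06 (0.399 to 2.996) and 1.27 (0.654 to 2.58). Cox5b, named after its values were seen, had 7 and 8, then 8 and 8 reads, at 0.620 (0.191 to 1.96) and 0.571 (0.187 to 1.75). Among nuclear members with enough reads it had the lowest fold of both lists over wild type, with an interval that held 1 in each.

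In complex V, besides Atp5g2, Atp5sl had 16 HA reads against 7 wild-type reads in mouse 1, at 1.62 (0.630 to 4.65); GENCODE M21 names it Dmac2, a factor for the assembly of complex I rather than an ATP synthase subunit. Atp5s had 2 and 3 HA reads and none in the wild type. Among assembly factors, Sdhaf1 had the most reads of any nuclear member, 80 HA reads against 63 wild-type reads in mouse 1, at 0.899 (0.638 to 1.27). The remaining 10 nuclear members, Cox5b and Uqcrc2 among them, held 2 to 18 reads in any list; the other 8 were Ndufa4, Ndufa5, Ndufb11, Ndufc2, Ndufs5, Sdhc, Ndufaf4 and Sdhaf3.

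Where a region has identical coordinates in both lists of a mouse, its reads are known in 3 libraries. In mouse 1, 13 nuclear member regions held 98 HA, 52 IgG and 59 wild-type reads, and the IgG reads exceeded the HA reads in 0 of them, as in 2.12% of all 3211 such regions. In mouse 2, 4 regions held 78 HA, 160 IgG and 35 wild-type reads, and IgG exceeded HA in 3, while it did in 35.2% of all 1587 regions. That share takes in regions of any depth. Among regions with at least 20 reads in the list over IgG in mouse 2, the median ratio of HA to IgG reads was 0.947. On chromosome 15, which held these 3 regions, it was 0.783, so more IgG than HA reads were usual there. Before scaling, IgG reads were thus below HA reads at all 13 nuclear member regions of mouse 1 and above them at 3 of 4 in mouse 2, where the fourth had 3 of each. Over all 1587 regions of mouse 2 the HA reads were the more numerous, 30615 against 23076.

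At Ndufb9, the reads in HA, IgG and wild-type libraries were 23, 18 and 15 in mouse 1 and 25, 33 and 12 in mouse 2. At Cox6c they were 31, 83 and 13 in mouse 2, and at Ndufa6 19, 41 and 10. Ndufb2 had 40, 26 and 30 in mouse 1. Before scaling, the HA library exceeded the wild-type library in all 4 of these genes. It exceeded the IgG library at Ndufb9 and Ndufb2 in mouse 1, but not at Ndufb9, Cox6c and Ndufa6 in mouse 2. Of these genes, only Ndufb9 was counted this way in both mice. In the authors' deposited table, adjusted p-values were below 0.05 in 8 of 14 nuclear member regions over IgG in mouse 1 and in 5 of 5 in mouse 2, Cox6c and Ndufa6 included, against 64.6% and 87.3% of all regions. Over wild type, the authors' deposited table had 27 of 31 and 22 of 23 below that value, against 82.3% and 78.8% of all regions. The authors' empirical false discovery rate in the deposited table was below 0.1 in 0 of 14 and 5 of 5 nuclear member regions over IgG (4.25% and 71.8% of all) and in 14 of 31 and 9 of 23 over wild type (48.2% and 48.0%).

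**Figure D3:**
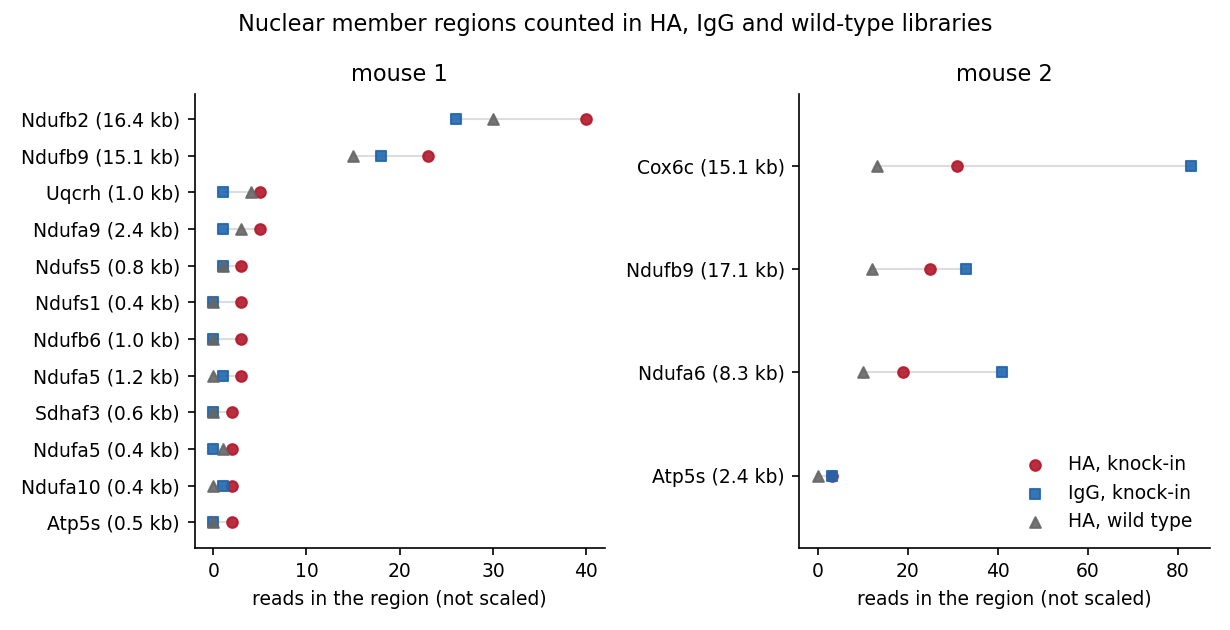
Unscaled reads in each nuclear member region that has the same coordinates in both lists of a mouse, with points for single libraries (circles HA in the knock-in, squares IgG in the knock-in, triangles HA in the wild type); the length of the region is given with its gene, equal counts overlap, and 1 region of mouse 1 is left out. In mouse 2 the IgG reads lie above the HA reads at Cox6c, Ndufb9 and Ndufa6, and in mouse 1 they lie below them at every region shown.

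Many regions reached beyond the member. The 73 nuclear member regions of the 4 lists were 400 to 30800 bp long (median 2500 bp); 8 touched no exon of the member, and 24 also touched another protein-coding gene. Those 24 held 570 of 853 HA reads, 66.8%, counting each list on its own. The 30800 bp region of Sdhaf1 had 995 bases on that gene (3.23%) and also covered Clip3, Alkbh6, Syne4 and E130208F15Rik. The largest Ndufb2 region over wild type in mouse 2, with 63 HA and 29 wild-type reads, had 1.44% of its bases on Ndufb2 and ran into Braf.

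Among the other regions with many reads, that of Cox7a1 had 11.5% of its bases on the gene and also touched Capns1, those of Ndufb9 had 33.5% to 38.0% and touched Tatdn1 and Mtss1, and those of Ndufa6 had 29.95% to 48.9% and touched Smdt1. The Cox6c regions had 81.3% to 81.6% on the gene and touched Vps13b. Reads of a region are not divided between its genes in the lists, so the values of these members cannot be told apart from those of their neighbours. Without regions that touch another coding gene, no member had enough reads over IgG in both mice, while 4 had over wild type, of which Atp5g2 was again the only member at least 2-fold higher in both.

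**Figure D4:**
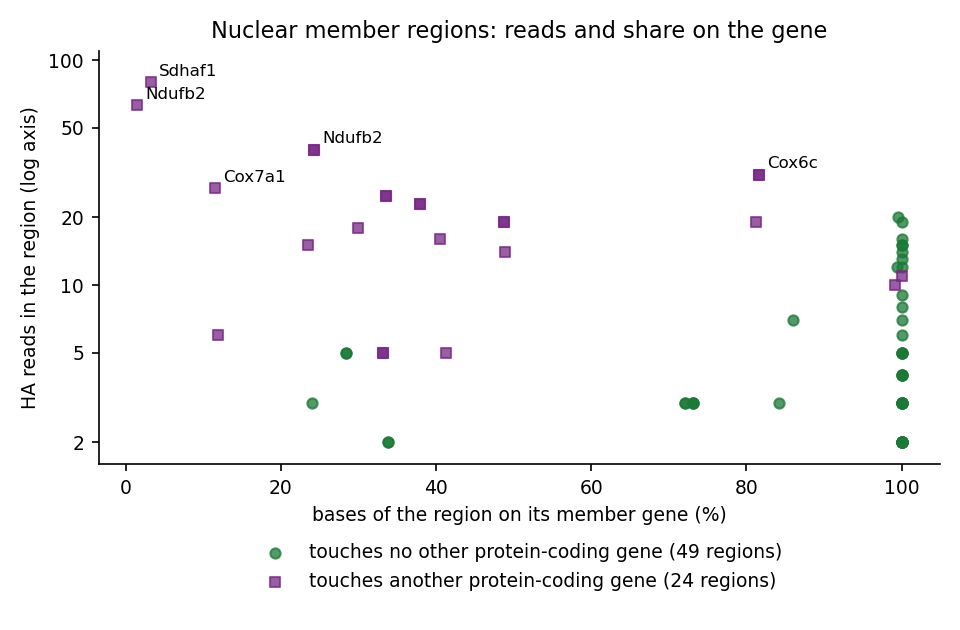
Share of each nuclear member region's bases that lie on its member gene (x, percent) against its HA reads (y, log axis), for all 73 regions of the 4 lists; circles touch no other protein-coding gene and squares do. The regions with the most HA reads, of Sdhaf1 and Ndufb2, have 1.44% to 24.3% of their bases on the member.

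Of 74 other genes of the pathway, which serve assembly, cofactor supply, inner membrane shape or transcription of the mitochondrial genome, 20 had a region in any list. With enough reads there were 6 and 5 over IgG. Of these, 1 in each mouse was at least 2-fold higher (12.1% and 12.8% of all genes were). At most 0.5-fold were 3 and 1 (17.9% and 16.1% of all genes). Named after their values were seen, the latter were Cycs at 0.415 (0.105 to 1.72) and Slc25a5 at 0.461 (0.140 to 1.61) in mouse 1, and Slirp in both. Slirp was at 0.148 (0.0247 to 0.649) in mouse 1 and 0.423 (0.134 to 1.15) in mouse 2. Over wild type there were 8 and 11, of which 0 and 1 were at least 2-fold higher (20.4% and 18.3% of all genes). None was at most 0.5-fold (3.44% and 4.15% of all genes). Their median scaled folds over IgG were 0.852 in mouse 1 and 0.921 in mouse 2, and those over the wild type 1.03 and 1.14. Over IgG these medians lay nearer those of all genes than the members' did, on few genes in either case; the difference was not tested.

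Cox16, a complex IV assembly factor, had 21 HA reads against 6 IgG reads in mouse 2, a scaled fold of 3.70 (1.44 to 11.2), and 11 and 3 in mouse 1, at 1.27 (0.335 to 7.07). Cyc1, the cytochrome c1 subunit of complex III whose symbol falls outside the name rule, had 42 HA reads against 88 IgG reads in mouse 2, at 0.504 (0.340 to 0.736), and 24 wild-type reads for the same HA reads, at 1.00 (0.592 to 1.73). It thus had more reads with IgG than with anti-HA, as did Cox6c on the same chromosome.

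Coa5, a complex IV assembly factor, had 25 HA reads against 3 IgG reads in mouse 1, at 2.88 (0.879 to 14.9), and 52 and 25 over wild type in the same mouse, at 1.47 (0.898 to 2.48). Cox20, which helps mature a core subunit of complex IV, had 111 HA reads against 76 wild-type reads in mouse 1, then 127 against 70 in mouse 2, at 1.03 and 1.04. Immt, which shapes the cristae, had 21 and 28, then 36 and 22, at 0.531 (0.287 to 0.970) and 0.935 (0.535 to 1.67). Cox14 had 34 HA reads against 39 with IgG in mouse 2, at 0.921, and 16 and 34 HA reads over 11 and 17 wild-type reads in mice 1 and 2. Sco2, a copper chaperone of complex IV, had 22 and 17 over IgG in mouse 2, at 1.37 (0.693 to 2.74).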

How the data were processed

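RNA immunoprecipitates of 5 libraries were sequenced with 50 cycles, single-end, and the submitters' processing notes name TopHat, TopHat2, GRCm38 and mm10. Per the file headers, rtracklayer 1.28.9 wrote the deposited lists, which hold other values per region: the authors' unscaled read numbers of an HA library and its control, their adjusted p-value and their empirical false discovery rate. The sources used here do not name the region caller or its filters. Regions were called for HA reads, so no comparison is independent of the calling.

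Reads were summed per gene and list, and their ratio was divided by the list's median region ratio (regions of at least 20 reads, a control of 0 set to 3 reads). Genes without control reads got no fold at 3 HA reads or fewer and otherwise a bound against 3 reads. With 1 library on each side there is no test within a list. Member regions with identical coordinates in both lists over IgG numbered 0, so the planned limma fit gave no member value. Instead, after seeing the data, limma 3.58.1 (R 4.3.3) was fitted to log2 of gene sums plus 0.5, for the 543 genes with enough reads over IgG in both mice, with Benjamini-Hochberg adjustment. The mouse number was a block, because a gene's regions differ in extent between mice. Each of the authors' lists also pairs the HA and IgG libraries of 1 number. The planned region fit had no block, which was only its alternative, so the blocked form was also chosen after seeing the data. The p-values measure only the spread between these libraries, which limma moderates over all genes of the fit. With the pooled ratio (SE 0.391) and without the block (SE 1.31), Ndufa6 and Ndufb9 had the same SE. Their p-values in those fits thus rest on the spread over all genes, not on their own. On simulated counts of 543 genes this fit found 149 of 181 genes changed by 2 on the log2 scale, with 4 false calls. The simulated counts had a scale known to the fit and no calling of regions on HA reads. They therefore do not give the number of false calls in these data.

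BLAST 2.17.0 and Python 3.11.15 (pandas 2.3.3, scipy 1.17.1) did the rest. Members, gene lists, markers and tests were chosen with earlier results of these data known. Nuclear members were named if they had at least 20 reads in any list, a region in 3 lists or more, or the most reads of their complex; other pathway genes if they had at least 20 reads in 2 lists. The values of 1 member named by this rule and 1 sequence are not reported here.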

Additional observations from a re-analysis of the deposited data

How the results depend on the processing

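No member was at least 2-fold higher over IgG in both mice under any alternative tried, but at most 2 members could be compared in both. With only regions inside the gene, or without regions touching another coding gene, no member could be compared. Those settings could therefore give no other count over IgG. The count at most 0.5-fold in both mice, 0 as reported, became 2 (Ndufa6 and Ndufb9) with the pooled ratio of the list as the scale; leaving out mouse 1 or mouse 2 gave 2 and 1. That scale shifts every log2 fold over IgG by -0.42 in mouse 1 and -1.09 in mouse 2, and every one over the wild type by 0.73 and 0.93. The count at least 2-fold higher over wild type, 1 as reported, became 2 with the pooled ratio (Atp5g2 and Ndufa6), 2 with no read minimum (Atp5g2 and Sdhb), 0 with only regions inside the gene, 0 with 0.5 added, and 2 to 3 in 1 mouse alone. None was at most 0.5-fold over wild type in any of the alternatives.

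The nuclear median log2 fold over IgG, -0.91 and -0.76 in mice 1 and 2, became -1.33 and -1.84 with the pooled ratio and -0.53 and -0.48 with no read minimum. With no read minimum, the mouse 1 median rested on 9 of 13 members. The others had at most 3 HA reads and no IgG reads, and so got no fold. In mouse 2 the median log2 fold over IgG was -0.48 with only regions inside the gene or without regions touching another coding gene, both resting on Atp5g2 alone. It was also -0.48 with the median of each chromosome. In mouse 1 neither region choice left a member. Over wild type, 0.09 and 0.35 became 0.82 and 1.27 with the pooled ratio; in mouse 2 it was 0.55 with only regions inside the gene and 0.59 without regions touching another coding gene. Scaled by the pooled ratio, the ratio of mitochondrial genome reads was 0.196 over IgG in mouse 1, and 2.15 and 2.65 over wild type in mice 1 and 2.

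With the replicate block, Ndufa6 and Ndufb9 were at -0.89 and -0.75; without the replicate block the values were the same, while the genes called over IgG went from 25 higher and 46 lower to 6 and 0. With at least 5 reads the blocked limma fit called 18 and 0 of 670 genes, with at least 20 reads 26 and 73 of 392, and with the pooled ratio 28 and 335 of 543. Leaving out a library leaves the blocked fit no residual degree of freedom; without the block, the log2 differences ranged from -2.03 to 0.26 for Ndufa6 (0.13 without the HA library of mouse 1) and from -1.62 to 0.11 for Ndufb9, with the lone library assumed to vary like the rest. Over 80 identical regions, the log2 difference of mouse 1 and mouse 2 in the HA libraries correlated with that in the IgG libraries at r = -0.04. By this measure the same-numbered libraries did not deviate together. Because no member region was identical over IgG, with 20 or with 5 reads, the planned region fits were not run. Chromosome medians, the removal of regions touching other genes and the fit to gene sums with its block were chosen after seeing the data. Over IgG, 3 nuclear members had a region in both mice and 2 of them could be compared, with or without the read minimum. Low read numbers widen the intervals of the nuclear members.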

Other observations

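Regions beside the members were left out of all values above. The most reads among nuclear ones were downstream of Cox5b over wild type in mouse 2, at chr1:36698076-36702585, with 44 HA and 22 wild-type reads, more than the 8 and 8 on the gene itself. A region upstream of Sdhaf4, whose gene holds no placed region, had 10 HA and 5 wild-type reads over 5330 bp in mouse 1 and 7 and 5 over 6150 bp in mouse 2. Upstream of Ndufa6, a 2565 bp region had 4 HA reads against 1 with IgG in mouse 1, and another of the same length had 4 HA, 2 IgG and 0 wild-type reads in mouse 2.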
